A study of Mus musculus with 4 samples.

Results

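The collagen-rich injury spots of a mouse heart 4 days after myocardial infarction (MI) were 201 of the 1674 Visium spots analysed in the day 4 section, which has 2026 spots in all. They were chosen by measured values, the share of a spot's UMIs from Col1a1, Col1a2 and Col3a1, which encode the chains of collagen I and III. Visium records mRNA by position: tissue lies on barcoded capture areas, and every such spot takes up RNA from several neighbouring cells. A unique molecular identifier (UMI) stands for a captured mRNA molecule. Spots with over 1% of UMIs from hemoglobin genes (347) or with under 500 UMIs (5) were left out. The highest 12% of the remaining spots by collagen share are called collagen-rich, the lowest 50% (837 spots) collagen-poor, and the 636 spots between them intermediate.

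The study followed macrophages and myofibroblasts in the infarcted heart over time. All 4 hearts of the series came from ICR mice 12 weeks of age in which the left anterior descending (LAD) coronary artery was tied permanently, and they were taken on day 1, 4, 7 or 14. Each day is 1 fresh frozen section of 10 um from 1 mouse. No unoperated heart is among these sections, so the collagen-poor spots serve as comparison within the same injured heart. This design does not measure the spread between mice, and spots of a section are not replicates, so no test was run and each 95% interval, given in brackets after a ratio, covers counting error only.

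Because collagen chose the spots, a gene that varies together with collagen had to differ between the groups, and the values below describe these spots without testing any gene. Collagen shares ran from 3.43% to 7.43% in the collagen-rich spots, with a median of 4.41%. In the collagen-poor spots they ran from 0 to 0.159%, with a median of 0.0812%. At the upper limit the last spot inside had 3.426% and the first outside 3.413%, and at the lower limit 0.1586% and 0.1593%. In plain CPM, a level relative to all UMIs of the group, Col1a1 stood at 12677 in collagen-rich and 261 in collagen-poor spots, Col1a2 at 15942 and 269, and Col3a1 at 18180.4 and 295.

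As background, myocardium that loses its blood supply dies, and neutrophils and then monocyte-derived macrophages clear the debris. Resident fibroblasts turn into myofibroblasts, which contract and lay down a provisional matrix of fibronectin, tenascin C and periostin before cross-linked collagen forms the scar. Surviving cardiomyocytes along the injury switch on fetal and stretch genes such as those for the natriuretic peptides.

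The collagen-rich spots were shallower than the collagen-poor spots, with a median of 5786 against 9789 UMIs, but held more detected genes, 2553 against 2237. Transcripts of the mitochondrial genome took 37.1% of all UMIs in collagen-poor and 3.58% in collagen-rich spots, which shapes any scale built on totals. Counts were therefore scaled by the trimmed mean of M values (TMM) with the collagen-poor spots as reference, and the result is called scaled CPM. On plain CPM each log2 ratio lies 1.36 higher than on scaled CPM, and the median over all genes measured was -0.21 on scaled and 1.15 on plain CPM. A sum over spots cannot tell fewer cells of a type from less RNA per cell.

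Of 32285 genes in the files, 8810 had at least 100 UMIs over the analysed spots and are called measured. On scaled CPM, 1468 of them (16.7%) were at least 2-fold higher and 2430 (27.6%) at least 2-fold lower in collagen-rich spots, and 4912 lay within 2-fold. On plain CPM these counts were 4854 and 924, so higher genes made up 37.7% of the differences past 2-fold on scaled CPM and 84.01% on plain CPM. Differences of 16-fold or more were found for 75 genes above and 227 genes below. In what follows, "higher" and "lower" mean past 2-fold on scaled CPM in collagen-rich against collagen-poor spots, and the shares of 16.7% and 27.6% stand behind each list's counts. Since the rule used this contrast, nothing is read from a list's excess over them.

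**Figure D1:**
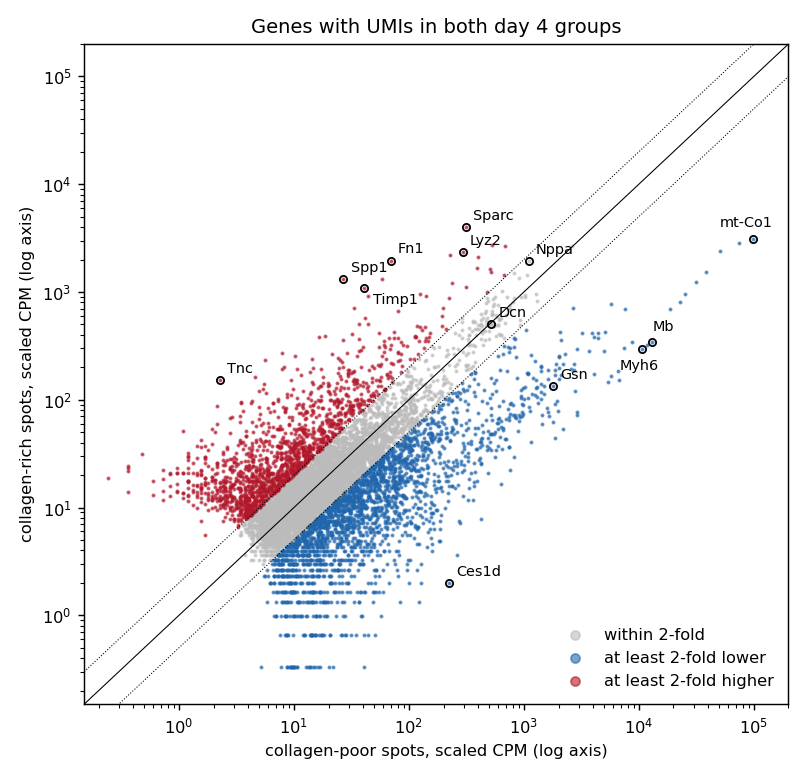
Each point is a measured gene with UMIs in both groups of day 4 spots, at its scaled CPM in collagen-poor spots (x, log axis) and in collagen-rich spots (y, log axis). The solid line marks equality and dotted lines 2-fold. Those drawn of the 1468 higher genes lie above the upper dotted line. Those drawn of the 2430 lower genes, with Mb, Myh6 and mt-Co1 among them, lie below the lower one. Lower genes with 0 UMIs in collagen-rich spots, such as Wif1 and Slc38a3, are not drawn.

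Markers that the rule did not use separated the groups spot by spot. The 16 genes of the cardiac sarcomere together made up 0.119% to 3.901% of UMIs per collagen-rich spot (median 0.616%) and 4.902% to 10.5% per collagen-poor spot (median 7.59%). The study's macrophage signature, a list it drew from published single-cell data of other infarcted mouse hearts, made up 1.08% to 6.49% (median 2.96%) against 0 to 0.757% (median 0.163%). Its myofibroblast signature, taken here without the 3 ranking genes and a reporter, made up 3.23% to 9.08% (median 5.61%) against 0.239% to 1.46% (median 0.508%). Every one of the 201 collagen-rich spots lay above all collagen-poor spots in both signatures and below them in sarcomere share. These are shares of all UMIs, and such a separation was not particular to cell type markers. Cytosolic ribosomal proteins took 6.73% to 15.7% per collagen-rich spot and 2.10% to 6.29% per collagen-poor spot. Yet 75 of their 78 measured genes lay within 2-fold on scaled CPM.

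The collagen-poor spots are called remote by low collagen alone, since neither the coordinates of spots nor their images entered the analysis. Some of them had high shares of Nppa, a member of the border zone stress list, which does not by itself place a spot. Nppa, which encodes atrial natriuretic peptide, ranged from 0 to 2.98% of UMIs among them, and 8 of the 837 lay above the median intermediate spot (1.42%). Of the 347 spots removed for hemoglobin, 20 lay over the lower collagen limit of the collagen-rich spots.

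**Figure D2:**
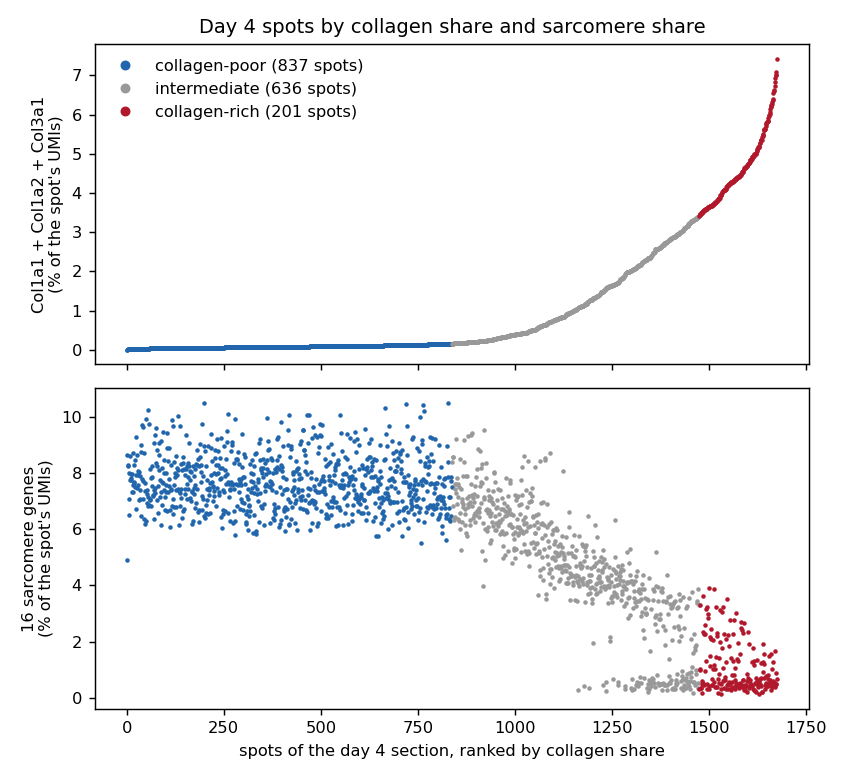
The 1674 analysed day 4 spots are ranked along x by collagen share, which the upper panel shows as % of each spot's UMIs, and the lower panel shows the share of 16 sarcomere genes in the same spots. Sarcomere shares of the collagen-poor spots sit between 4.902% and 10.5%, and among intermediate spots they divide into an upper and a lower band. Collagen-rich spots are mostly low, and others of them lie at and above the range between these bands.

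Provisional and matricellular matrix genes had the highest median of the matrix lists. All 13 genes of that list were measured and 13 were higher, with a median log2 ratio of 3.66. Tnc, encoding tenascin C, stood at 153 against 2.28 scaled CPM in collagen-rich against collagen-poor spots, a ratio of 66.98-fold (42.4 to 112). Spp1, encoding osteopontin, a matrix protein that macrophages also secrete, had the highest lower bound of all genes measured, at 1309.6 against 26.9 scaled CPM and 48.7-fold (42.6 to 55.96). Fn1, encoding fibronectin, stood at 1957 against 69.4 scaled CPM, or 28.2-fold (25.9 to 30.8). Periostin marks activated fibroblasts, and its gene Postn stood at 1309 against 58.5 scaled CPM, or 22.4-fold (20.4 to 24.6). The lowest ratio of the list was that of Ccn2, the connective tissue growth factor gene, at 2.58-fold (2.38 to 2.801).

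Single spots differed in how far these genes set the groups apart. Fn1 took 0.0743% to 1.23% of UMIs per collagen-rich spot with a median of 0.482%, and 0 to 0.0661% per collagen-poor spot with a median of 0. Sparc, the gene of a collagen-binding matricellular protein, took 0.475% to 1.92% (median 1.003%) against 0 to 0.116% (median 0.0291%). In both genes the lowest collagen-rich spot was above the highest collagen-poor spot. Postn ranged from 0 to 1.15% (median 0.265%) in collagen-rich spots, and 194 of the 201 lay above the highest collagen-poor spot at 0.0661%. Spp1 ranged from 0 to 1.49% with a median of 0.214%, and 171 spots lay above the collagen-poor maximum of 0.0375%.

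The other collagens and the enzymes that finish collagen went the same way. All 12 members of the list of further collagens were higher, with a median log2 ratio of 3.54. Col12a1, a collagen on the surface of fibrils, had the largest ratio of the list at 40.2-fold (24.96 to 68.9), with 264 UMIs in collagen-rich and 18 in collagen-poor spots. Col5a1 and Col5a2, whose products help to start fibrils, stood at 20.5-fold (18.4 to 22.9) and 21.5-fold (18.96 to 24.5). Of 18 genes for processing and cross-linking, 15 were higher. Lox, encoding the lysyl oxidase that cross-links fibrils, stood at 234 against 5.64 scaled CPM, or 41.5-fold (30.9 to 57.00), and Serpinh1, the gene of the collagen chaperone HSP47, at 7.66-fold (7.13 to 8.23). P4ha2, a prolyl hydroxylase subunit gene, was among the 3 within 2-fold, at 48.4 against 49.7 scaled CPM.

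Other matrix lists were mixed. Among 7 small leucine-rich proteoglycans 4 were higher and 3 within 2-fold, with 7 higher on plain CPM. Bgn, encoding biglycan, stood at 9.63-fold (9.15 to 10.1), while Dcn, encoding decorin, was level on scaled CPM at 504 against 519, a ratio of 0.972 (0.917 to 1.03), with a log2 ratio of 1.32 on plain CPM. Of the 9 elastic fibre genes 8 were higher, Ltbp2, a latent TGF-beta binding protein gene, by 24.5-fold (19.1 to 31.99). Fbln5, which elastic fibre assembly needs, was the member within 2-fold, at a log2 ratio of 0.38 on scaled CPM. The basement membrane list had 6 of 11 members higher and 2 lower, but 9 higher and 0 lower on plain CPM, with a median log2 ratio of 1.23 on scaled and 2.59 on plain CPM. Col18a1, whose product yields endostatin, led it at 11.8-fold (9.24 to 15.4), and Col4a1, a collagen IV chain gene, stood at 3.34-fold (3.06 to 3.65).

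The metalloproteinases and their tissue inhibitors spread in both directions. Of 12 listed genes 9 were measured, 7 of them higher and 2 lower. Timp1, at chrX:20870166-20874735 on the plus strand (GRCm38), encodes an inhibitor that is induced by injury and that the study follows as a growth factor of myofibroblasts. It stood at 1097 against 40.9 scaled CPM, or 26.8-fold (23.95 to 30.03), from 3330 and 341 UMIs. Per spot it took 0 to 1.35% of UMIs in collagen-rich spots (median 0.189%) and 0 to 0.132% in collagen-poor spots (median 0). Collagen-rich spots above the collagen-poor maximum numbered 134 of 201, so the groups overlapped. Mmp12, the macrophage elastase gene, stood at 27.6-fold (16.5 to 49.4) and Mmp2, a gelatinase gene, at 4.31-fold (3.87 to 4.79). Timp3, which encodes the matrix-bound inhibitor, was 3.02-fold lower (2.54 to 3.604) on scaled CPM, with a log2 ratio of -0.24 on plain CPM. Timp4, an inhibitor gene known for its expression in heart, had 3 UMIs in collagen-rich and 473 in collagen-poor spots and was 57.5-fold lower (19.6 to 279.8).

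All 6 genes listed as receptors or binding partners of TIMP1 were higher, each with a smaller ratio than Timp1. Cd44, which encodes the hyaluronan receptor, stood at 62.2 against 3.36 scaled CPM, or 18.5-fold (12.4 to 28.6). Lrp1, the gene of an endocytic receptor, stood at 280.2 against 80.8 scaled CPM, or 3.47-fold (3.13 to 3.84). Cd63, a tetraspanin gene, stood at 3.44-fold (3.18 to 3.72). App at 2.04-fold (1.74 to 2.400), Cd74 at 2.38-fold (1.801 to 3.15) and Cd82 at 2.44-fold (1.35 to 4.39) had intervals that reached below 2-fold, Cd82 on 24 and 27 UMIs. Spots with at least 2000 UMIs were also thinned to that number, which left 190 collagen-rich and 835 collagen-poor spots at an equal total of UMIs. Timp1 was then found in 93.7% of collagen-rich and 9.22% of collagen-poor spots (97.01% and 32.02% before thinning), and Lrp1 in 76.3% and 15.4% (95.02% and 52.8%). Such rates belong to the scale of plain CPM. Transcripts of the mitochondrial genome took 37.1% of UMIs in collagen-poor and 3.58% in collagen-rich spots, so an equal total left collagen-poor spots fewer UMIs for other genes.

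The reference sequence around the start of Timp1 and of Postn is shown because both were among the 15 genes with the highest lower bound of the ratio. Both windows are from RefSeq on GRCm38.p6, from 250 bases before to 50 bases after a transcript start, at chrX:20869916-20870215 and chr3:54360857-54361156 on the plus strand. Capitals mark TATAAA, or CATTCC (a TEAD motif), on either strand.
Timp1: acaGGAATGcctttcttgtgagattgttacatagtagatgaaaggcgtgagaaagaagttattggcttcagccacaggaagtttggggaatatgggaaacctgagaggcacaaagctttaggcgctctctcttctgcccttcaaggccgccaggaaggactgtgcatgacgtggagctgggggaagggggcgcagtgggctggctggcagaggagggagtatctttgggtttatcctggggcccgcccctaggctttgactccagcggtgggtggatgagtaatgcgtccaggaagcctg
Postn: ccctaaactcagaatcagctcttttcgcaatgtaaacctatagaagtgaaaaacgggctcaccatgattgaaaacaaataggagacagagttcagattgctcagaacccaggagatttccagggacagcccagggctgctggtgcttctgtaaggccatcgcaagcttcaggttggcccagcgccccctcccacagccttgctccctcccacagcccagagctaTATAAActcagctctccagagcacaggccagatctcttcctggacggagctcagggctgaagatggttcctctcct
In Postn the letters TATAAA lie at -26 from the start, and in Timp1 the other strand of CATTCC lies at -247. Of the 15 genes 8 had a window, and 5 of these held TATAAA on either strand, against 8.96% of the 7045 measured genes with a window. Among all higher genes with a window TATAAA was in 11.7%, and among lower genes in 10.3%. Outside Postn the matches in the 5 genes lay at -219 to -126 from a start. A gene counted if any of its windows held the letters, and Postn has a second window with none. The AP-1 motif TGACTCA was in 1 of the 8 genes and in 4.599% of measured genes, and CATTCC in 1 and 14.5%. Of the 15 genes with the lowest upper bound 13 had a window, and 3 held TATAAA, 3 held CATTCC and 0 held TGACTCA. A match is only a match of letters, no motif's letters contain another's, and these small counts were not tested.

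Genes of activated fibroblasts were higher. All 10 measured members of a list of 11 were, with a median log2 ratio of 2.502. Cthrc1, a marker of activated fibroblasts in scars, stood at 272 against 7.92 scaled CPM, or 34.3-fold (26.7 to 44.8). Acta2, encoding the smooth muscle actin that myofibroblasts take up, stood at 376 against 74.4 scaled CPM, or 5.06-fold (4.58 to 5.58), and Tagln, encoding transgelin, at 7.55-fold (6.46 to 8.84). Both are also in a list of smooth muscle genes. Of its 5 measured members 3 were higher, 1 lower and 1 within 2-fold, with 4 higher and 0 lower on plain CPM. The 3 higher ones on scaled CPM are all shared with the list of activated fibroblasts. Of the 84 genes kept from the study's myofibroblast signature, without the 3 ranking genes and a reporter, 74 were higher and 2 lower. Cryab, a small heat shock protein gene that cardiomyocytes also use, was at its lower end, 5.900-fold lower (5.55 to 6.28). Outside these lists, Prg4, encoding lubricin, stood at 25.01-fold (19.97 to 31.7).

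Lists of growth factor genes gave different counts on scaled and on plain CPM. Of 15 genes of TGF-beta ligands, receptors and targets 8 were higher and 1 lower, and on plain CPM 11 higher and 0 lower. Inhba, encoding an activin subunit, led the list at 17.3-fold (8.804 to 37.8). Among 8 measured genes of insulin-like growth factors and their binding proteins 3 were higher and 0 lower, and on plain CPM 7 higher and 0 lower, with a median log2 ratio of 0.65 on scaled and 2.01 on plain CPM. Igf1, the ligand gene, stood at 3.55-fold (2.58 to 4.91) and the binding protein gene Igfbp7 at 3.52-fold (3.35 to 3.71). Of 6 measured angiogenic genes 1 was higher and 2 were lower, and on plain CPM 3 higher and 1 lower. Plvap, a gene of fenestrated endothelium, was higher by 8.69-fold (5.92 to 13.01), and the ligand gene Vegfb was 11.1-fold lower (8.98 to 13.8).

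Genes of resting fibroblasts were divided as well. Of 8 such genes, 1 was higher, 4 lower and 3 within 2-fold, with a median log2 ratio of -0.63 that was 0.73 on plain CPM, where 4 higher and 2 lower were counted. Gsn, encoding gelsolin, stood at 134 against 1786 scaled CPM and was 13.3-fold lower (12.1 to 14.7), with a log2 ratio of -2.38 on plain CPM. The summed level of the list in collagen-poor spots was 2103 scaled CPM, so Gsn made up most of it. Scara5, a ferritin receptor gene, was 13.6-fold lower (5.71 to 42.3) on 5 UMIs in collagen-rich spots. Dpt, the dermatopontin gene, was the higher member, at 2.74-fold (2.405 to 3.13).

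All 11 macrophage genes of the marker list were higher. Their median log2 ratio was 2.65 and their summed level 4048 scaled CPM in collagen-rich, 2544 in intermediate and 599 in collagen-poor spots. Lyz2, the lysozyme gene of myeloid cells, stood at 2351 against 294 scaled CPM, or 7.99-fold (7.63 to 8.37). Per spot Lyz2 took 0.1200% to 1.83% of UMIs (median 0.539%), and 173 of 201 collagen-rich spots lay above the collagen-poor maximum of 0.3005%. Ctss, encoding cathepsin S, had the largest ratio of the list at 13.6-fold (11.8 to 15.8), and the complement gene C1qa the smallest at 2.702-fold (2.27 to 3.21). Of 101 measured genes of the study's macrophage signature, 99 were higher. Bcl2a1b, a survival gene of activated leukocytes, led it at 65.8-fold (24.9 to 246) on 96 and 4 UMIs.

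Lists of macrophage subtypes gave different counts. Of 8 genes of the Spp1-Trem2 macrophage list 7 were higher, and the exception was Lpl, encoding lipoprotein lipase, which heart muscle also makes, at 23.3-fold lower (21.02 to 25.9). Among 6 measured genes of resident macrophages 1 was higher and 2 were lower, with 3 higher and 0 lower on plain CPM and a median log2 ratio of -0.16 on scaled and 1.199 on plain CPM. Mrc1, the mannose receptor gene, stood at 2.23-fold (1.78 to 2.78). Lyve1, a marker of resident macrophages and lymphatics, was 3.28-fold lower (1.76 to 6.79) on 11 UMIs, with a log2 ratio of -0.36 on plain CPM. Arg1, encoding arginase 1, a gene of wound macrophages, stood at 47.8-fold (24.6 to 107) on 157 and 9 UMIs. The monocyte genes Plac8, at 17.6-fold (9.98 to 33.5), and Ccr2, the receptor gene for CCL2, at 10.97-fold (5.74 to 22.7), were the measured members of a list of 5.

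Few markers of other blood cells were measured. Of 9 neutrophil genes 2 were measured, the gelatinase gene Mmp9 at 21.9-fold (12.5 to 41.4) and the calprotectin gene S100a8 at 3.09-fold (1.86 to 5.13) on 36 and 32 UMIs. Of 5 B cell genes the immunoglobulin gene Ighm was measured, at 2.34-fold (1.45 to 3.77) on 35 and 41 UMIs. None of 10 T and NK cell genes, 4 dendritic cell genes, 7 mesothelial genes or 5 Schwann cell genes reached 100 UMIs over the analysed spots. Of 13 endothelial genes 12 were measured, and 0 were higher and 5 lower, with a median log2 ratio of -0.83 that was 0.53 on plain CPM, where 4 higher and 1 lower were counted. Aqp1, the capillary water channel gene, was 8.04-fold lower (6.05 to 10.9), with a log2 ratio of -1.65 on plain CPM. The 7 pericyte genes had 2 higher and 4 lower members, and their median of -1.13 was 0.22 on plain CPM, where 3 higher and 1 lower were counted. Pdgfrb, a receptor gene that fibroblasts share, stood at 2.77-fold (2.34 to 3.29), and Abcc9, a potassium channel subunit gene, was 12.1-fold lower (8.400 to 17.98).

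All 10 measured chemokine genes of 16 listed were higher, led by Ccl7, which recruits monocytes, at 24.6-fold (15.9 to 39.6). Ccl6, a myeloid chemokine gene, had 674 UMIs in collagen-rich and 219 in collagen-poor spots, or 8.44-fold (7.24 to 9.88). Of 8 measured acute phase genes 7 were higher, the haptoglobin gene Hp by 26.6-fold (18.1 to 40.4). The interferon list had 7 of 9 measured members higher, with Isg15 at 12.00-fold (8.13 to 18.2). Of 13 complement genes 7 were higher and 6 within 2-fold, with 11 higher on plain CPM. The 7 genes of iron and heme had 3 higher and 1 lower, and on plain CPM 5 higher and 0 lower. Hmox1, encoding the heme oxygenase that breaks down heme, stood at 24.1-fold (18.7 to 31.6) and the ferritin light chain gene Ftl1 at 5.17-fold (4.99 to 5.37), while Fth1, the heavy chain gene, had a ratio of 1.01 (0.984 to 1.04) on scaled CPM. Lysosomal genes were higher in 11 of 15, with the protease gene Ctsb at 3.01-fold (2.89 to 3.14), while the membrane protein gene Lamp1 had a ratio of 0.997 (0.926 to 1.07) on scaled CPM. Of 4 measured genes of MHC class II 3 were higher, and H2-Aa stood at 1.78-fold (1.51 to 2.09).

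Genes of dividing cells were higher as well, in 14 of 18 measured, with a median log2 ratio of 2.57. The list summed to 394 scaled CPM in collagen-rich and 122 in collagen-poor spots. Its members with most UMIs, Pcna, Cenpa and Stmn1, were within 2-fold, at log2 ratios of 0.53, -0.47 and 0.93 on scaled CPM. Top2a, the topoisomerase gene of replicating cells, had 68 UMIs in collagen-rich and 6 in collagen-poor spots, or 31.1-fold (13.6 to 87.7). All 16 genes of the cytoskeleton and annexin list were higher, among them Actb, the cytoplasmic actin gene, by 5.24-fold (5.02 to 5.46) and the thymosin gene Tmsb10 by 7.88-fold (6.49 to 9.61). Of 13 genes of folding and secretion in the endoplasmic reticulum 10 were higher, with Creb3l1, a transcription factor of secretory cells, at 12.1-fold (8.01 to 19.02). Ribosomal protein genes formed a group near the centre of the scale: 75 of 78 were within 2-fold, with a median log2 ratio of 0.08, which was 1.44 on plain CPM, where 70 higher and 1 lower were counted.

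The heart muscle programme was lower as a block. All 16 sarcomere genes were lower, with a median log2 ratio of -3.94 that was -2.59 on plain CPM. Myh6, the alpha myosin heavy chain gene, stood at 298 against 10603 scaled CPM, 35.6-fold lower (33.3 to 38.03). Myl2, the ventricular regulatory light chain gene, was 36.8-fold lower (34.6 to 39.3), and Myl3, the essential light chain gene, 44.3-fold lower (40.4 to 48.6). Mybpc3, encoding myosin binding protein C, had the smallest difference, 4.497-fold lower (4.18 to 4.84). On plain CPM Mybpc3 had a log2 ratio of -0.81, within 2-fold, and 15 of 16 sarcomere genes were lower. Per spot, Myl2 took 0 to 0.565% of UMIs in collagen-rich spots (median 0.0657%) and 0.4902% to 2.11% in collagen-poor spots (median 1.19%), and 200 of the 201 collagen-rich spots lay below the lowest collagen-poor spot. Calcium handling had 9 of 9 genes lower, with Atp2a2, the SERCA pump gene, 24.3-fold lower (22.8 to 25.9). Channels and intercalated disc had 10 of 10 lower (7 on plain CPM), with the desmoplakin gene Dsp 8.45-fold lower (7.07 to 10.2).

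Oxidative metabolism was lower throughout its lists, with few exceptions. All 18 fatty acid oxidation genes were lower, with a median log2 ratio of -4.23, and Fabp3, whose product carries fatty acids in the muscle cell, was 34.2-fold lower (31.3 to 37.4). Of 81 measured nuclear genes of oxidative phosphorylation 79 were lower, with a median of -3.31. The muscle isoform gene Cox6a2 was 37.03-fold lower (33.7 to 40.8), whereas Cox6a1, the isoform of other tissues, stood at 199.6 against 167 scaled CPM, a ratio of 1.197 (1.09 to 1.32). All 17 citrate cycle genes and all 12 measured genes of the mitochondrial genome were lower, mt-Co1 by 31.8-fold (31.1 to 32.4). Glycolysis was divided, with 2 of 15 higher and 9 lower and a median log2 ratio of -1.23 that was 0.13 on plain CPM, where 5 higher and 2 lower were counted. Slc16a3, the lactate exporter gene, stood at 19.7-fold (8.33 to 56.5) on 43 and 6 UMIs, and the muscle phosphofructokinase gene Pfkm was 15.7-fold lower (13.1 to 19.1).

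Several genes with the lowest upper bounds over all genes measured belonged to none of the muscle or metabolic lists. Ces1d, a carboxylesterase gene, had 6 UMIs in collagen-rich and 1870 in collagen-poor spots and was 114-fold lower (52.1 to 310.0). Rpl3l, the ribosomal protein gene of striated muscle, was 72.8-fold lower (40.6 to 146), whereas its general counterpart Rpl3 was higher by 3.63-fold (3.300 to 4.000). Both are members of the ribosomal protein list above. Car14, a carbonic anhydrase gene, was 92.5-fold lower (36.02 to 340.2) and Strit1, encoding the SERCA regulator DWORF, 53.5-fold lower (35.9 to 83.6). Among the Wnt modulators, Wif1, an inhibitor gene, had 0 UMIs in collagen-rich against 136 in collagen-poor spots, at least 16.5-fold lower when the collagen-rich group is set at 3 UMIs. The other 5 listed were higher, Sfrp2, a secreted Frizzled-related protein gene, by 11.4-fold (8.098 to 16.2).

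**Figure D3:**
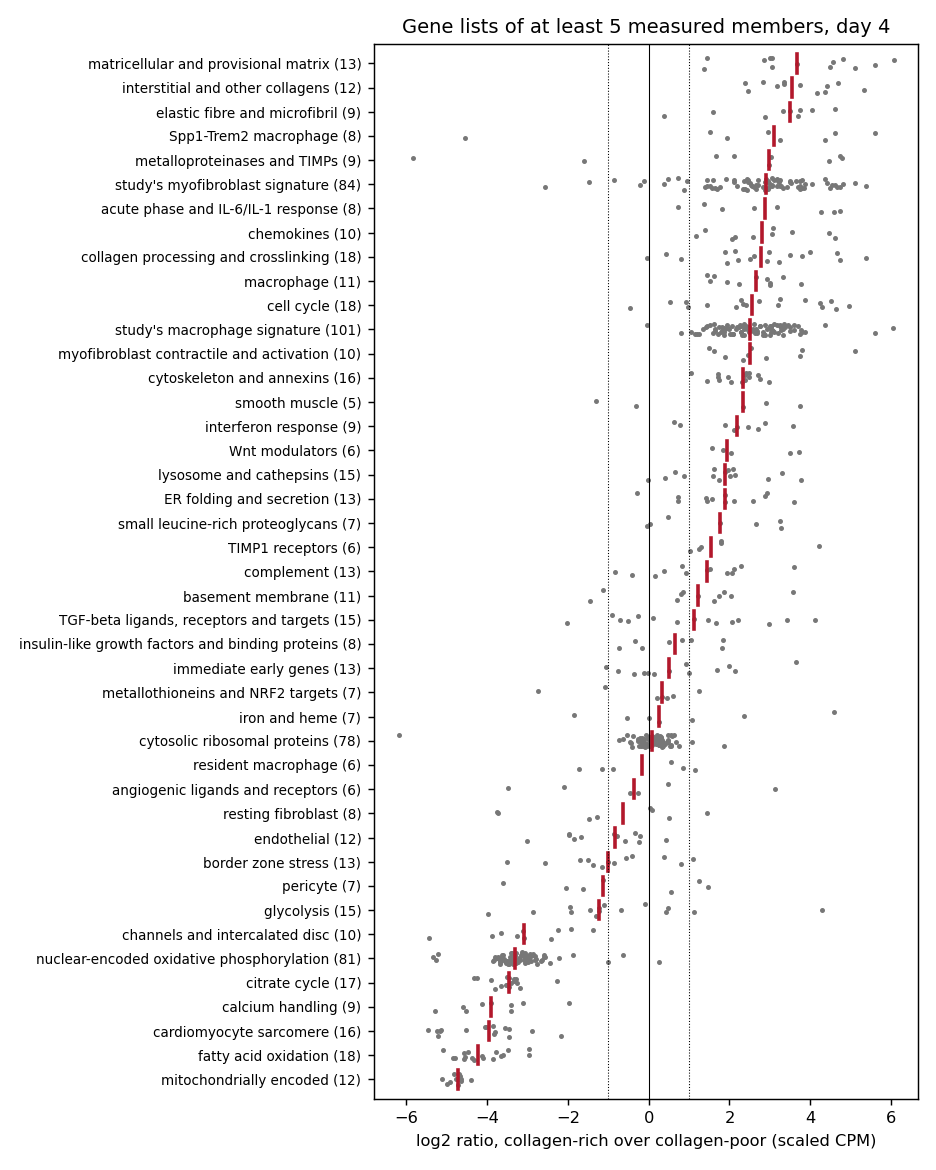
Each point is a measured gene of the named list at its log2 ratio of collagen-rich over collagen-poor spots on scaled CPM (x), with the number of measured members in brackets, a red bar at the list's median and dotted lines at 2-fold. Medians are -4.71 for mitochondrially encoded genes, 0.08 for ribosomal proteins and 3.66 for provisional matrix. Wif1, with no UMI in collagen-rich spots, is not drawn.

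Spots between the groups had levels that the comparison of both ends does not show. The 1674 spots were cut into 10 bins of near-equal size by collagen share, with bin 1 the lowest and the reference of the scale. Sarcomere genes summed to 77754 scaled CPM in bin 1, 69722 in bin 5, 36745 in bin 7 and 3874 in bin 10. The single genes that follow were picked for the largest excess of an inner bin over both ends, so that choice set their inner peaks. Nppa stood at 510.1 scaled CPM in bin 1, 14088 in bin 7 and 1911 in bin 10, 7.37 times the higher end at its highest. Nppb, encoding B-type natriuretic peptide, stood at 73.8, 636 and 70.4 in the same bins. Ankrd1, a stretch-induced gene of the sarcomere, stood at 627, 2641 and 306. Acta1, the skeletal actin gene of the fetal heart, was highest in bin 8 at 1477 scaled CPM, against 99.8 in bin 1 and 172 in bin 10. C3, the central complement gene, was highest in bin 6 at 397 scaled CPM, against 79.3 and 94.8.

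Between collagen-rich and collagen-poor spots most of these genes lay within 2-fold on scaled CPM. Nppa stood at 1921 against 1104 scaled CPM, or 1.74-fold (1.68 to 1.798), Acta1 at 1.31-fold (1.18 to 1.44) and Nppb at a ratio of 0.747 (0.642 to 0.866), which on plain CPM was a log2 ratio of 0.94. Ankrd1 was 2.62-fold lower (2.45 to 2.81) in collagen-rich spots on scaled CPM, with a log2 ratio of -0.03 on plain CPM. Of the 13 border zone genes 1 was higher and 7 were lower, with a median of -1.01 that was 0.35 on plain CPM, where 3 higher and 2 lower were counted. Clu, the clusterin gene, was the higher member at 2.16-fold (2.07 to 2.24), and it stood at 4597 scaled CPM in bin 8 against 1448 in bin 10.

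Genes with high levels at the collagen-rich end did not all peak there on scaled CPM. Postn stood at 672, 1348, 1358 and 1397 scaled CPM in bins 7 to 10, and Timp1 at 206, 793, 1074 and 1197. Spp1 stood at 79.9, 703, 1483 and 1383 and so was highest in bin 9 on scaled CPM. So was the summed macrophage list (4689.6 against 4310.0 in bin 10), though its median member stood at 9.02 and 8.99 times its bin 1 level. The TMM factor was 2.22 in bin 9 and 2.41 in bin 10, so the order of these bins depends on the scale. On plain CPM Spp1 was slightly higher in bin 10. Of the 1468 higher genes, 832 were highest in bin 10, 523 in bin 9 and 113 in an earlier bin. These genes were called from collagen-rich spots that all lie in bins 9 and 10. Peaks there were thus largely set by the rule, and nothing is read from these counts.

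**Figure D4:**
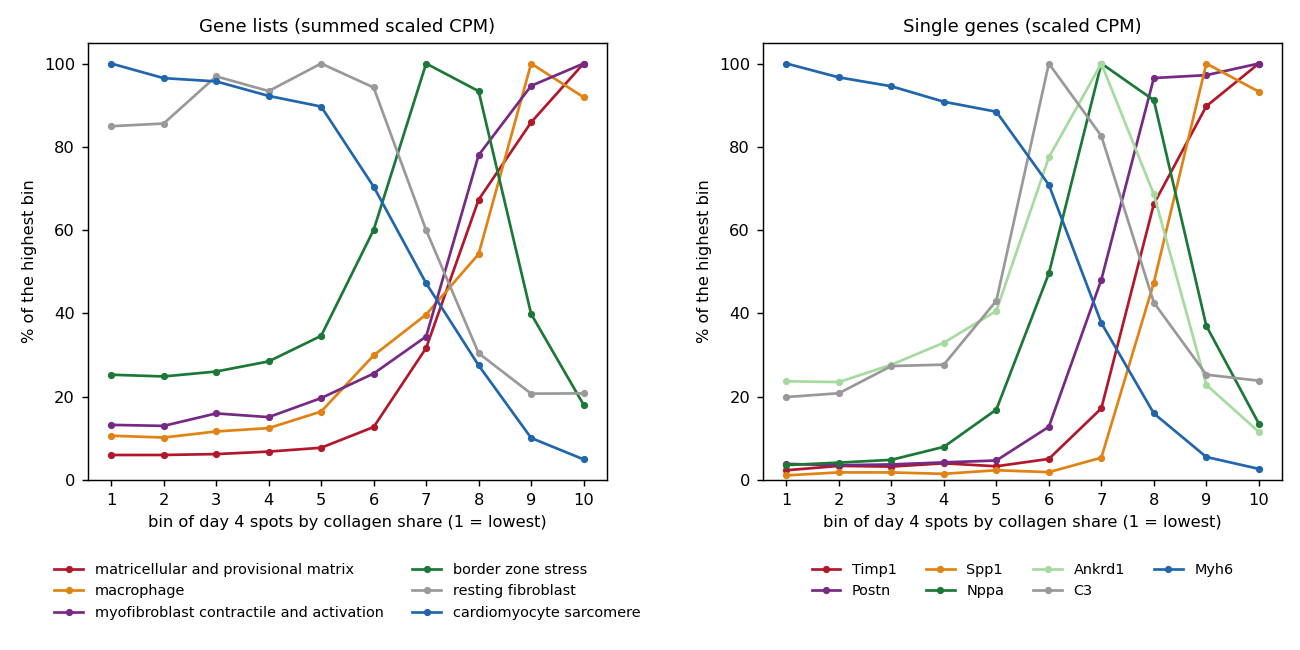
Levels over 10 bins of the day 4 spots ranked by collagen share (x, 1 is lowest), each line as % of its own highest bin, for the summed scaled CPM of gene lists (left) and the scaled CPM of single genes (right). On this scale the border zone stress sum, Nppa and Ankrd1 are highest in bin 7, the macrophage sum and Spp1 in bin 9, and the matrix sum, Timp1 and Postn in bin 10. In bin 7 Nppa is the largest member of the border zone stress sum. The median member of the border zone list stood at 1.56 and 2.01 times its bin 1 level in bins 7 and 8. The resting fibroblast line is a sum that in collagen-poor spots is mostly Gsn. The median member of that list stood at 1.72 and 1.76 times its bin 1 level in bins 6 and 7.

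Collagen-rich spots were not alike in their muscle content. The sarcomere share of intermediate spots fell into an upper and a lower band, and limits of 1% and 2% were set after seeing the values of all spots. Below, spots under 1% are called the low band and spots of at least 2% the high band. Of the 201 collagen-rich spots, 128 had under 1%, 37 had 1% to 2% and 36 had at least 2%. About as many thus lay between the limits as above them, so in this group the bands are only cut-offs. Among intermediate spots these numbers were 90, 9 and 537, and all 837 collagen-poor spots had at least 2%. In bin 9, at collagen shares of 2.34% to 3.69%, 83 of 167 spots were in the low band and 72 in the high band, so that spots of like collagen share held very different amounts of muscle transcript. Low-band spots numbered 22, 83 and 112 in bins 8 to 10, and high-band spots 144, 72 and 22. In the low band the median Timp1 share was 0.449%, 0.212% and 0.219%, and that of Spp1 1.04%, 0.470% and 0.353%. The high band had 0.0810%, 0.128% and 0.101% for Timp1, and 0.0169%, 0.0390% and 0.0511% for Spp1. Levels over the bins given above thus come from differing mixes of bands.

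The bands also differed in other genes. Within the collagen-rich spots, the low band had a median macrophage signature of 3.38% of UMIs and the high band 1.702%. Medians for Spp1 were 0.358% and 0.0481%, and for Timp1 0.215% and 0.127%. Postn had the opposite order, with 0.223% and 0.391%, as had the border zone stress genes, with 0.404% and 3.801%. Many border zone stress genes are cardiomyocyte genes, and the bands were cut by cardiomyocyte transcripts. The cut thus largely set the order of that list, and nothing is read from it. The myofibroblast signature stood at 5.47% and 5.27%, collagen share at 4.65% and 3.804%, and depth at 5779 and 5186 UMIs. Intermediate spots of the low band had medians of 4.59% for the macrophage signature, 0.611% for Spp1, 0.276% for Timp1 and 0.0989% for Postn. Those of the high band had 0.728%, 0.0078%, 0.0188% and 0.0758%. In the low band the macrophage, Spp1 and Timp1 medians were thus higher in intermediate than in collagen-rich spots, and that of Postn was lower. Shares of a spot sum to a whole, so less muscle transcript leaves more room for other genes, and the part of this in these differences was not tested.

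Across the 201 collagen-rich spots, which share 1 section and library, rank correlations of UMI shares described the same spread. The macrophage signature had a Spearman rho of -0.37 with the myofibroblast signature and -0.01 with the collagen share, while the myofibroblast signature had 0.51 with the collagen share. Postn, a member of the myofibroblast signature, had -0.53 with the macrophage signature and 0.59 with the myofibroblast signature, and Spp1, a member of the macrophage signature, 0.68 and -0.26. Sarcomere share had -0.69 and 0.06 with these signatures. Timp1, a member of the myofibroblast signature, was weakly related to either, at 0.10 and 0.03, and had 0.31 with the UMIs per spot. A member's correlation with its own signature includes its own UMIs. Collagen share also chose these spots, and all lists are shares of the same total. How far this set the correlations was not tested.

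**Figure D5:**
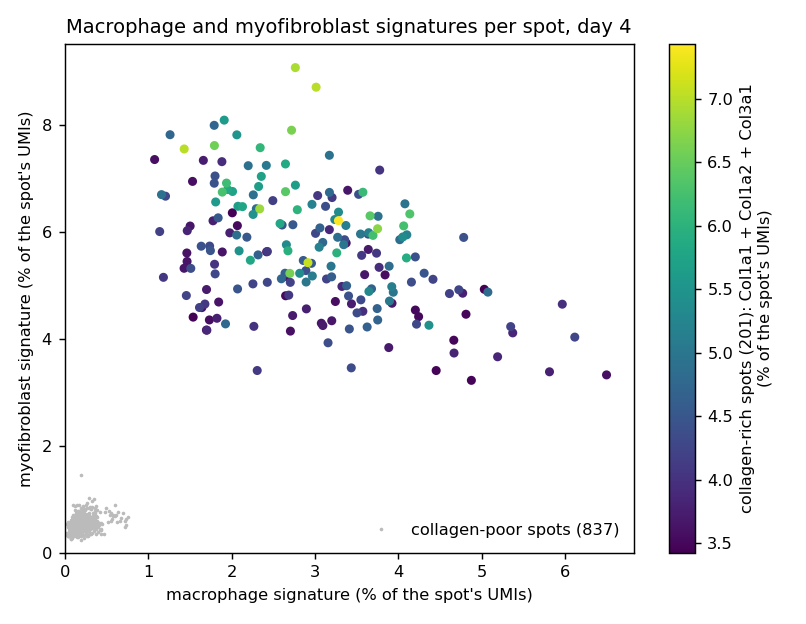
Each coloured point is 1 of 201 collagen-rich day 4 spots at its macrophage signature (x) and myofibroblast signature (y), both as % of the spot's UMIs, with the colour giving the collagen share, and grey points are the 837 collagen-poor spots. Collagen-rich spots span 1.08% to 6.49% in x and 3.23% to 9.08% in y, with the collagen-poor spots near the origin.

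The same rule was applied to the other sections, each against its own collagen-poor spots. Day and mouse cannot be told apart with 1 heart per day, and the rule took spots of different collagen share, with a median in the highest 12% of 0.346% on day 1, 5.57% on day 7 and 2.88% on day 14. Median depth of these spots was 5136, 2483 and 1254.5 UMIs. Of the genes higher on day 4 that were measured on the other day, 856 of 1115 were also at least 2-fold higher on day 7, 682 of 930 on day 14 and 402 of 1082 on day 1. Of all genes measured on both days, 14.2% were at least 2-fold higher on day 7, 12.3% on day 14 and 5.95% on day 1. For lower genes these numbers were 1850 of 2198, 1979 of 2369 and 784 of 2298, against 30.1%, 33.6% and 10.9% of all genes measured on both days. The same collagen ranking chose the spots on every day, so the rule itself brings part of this overlap, and nothing is read from it.

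List medians are given here in the order of days 1, 4, 7 and 14, as log2 ratios on scaled CPM. Provisional matrix genes had 1.86, 3.66, 4.55 and 5.18, and macrophage genes 1.21, 2.65, 2.35 and 3.16. Sarcomere genes had -1.12, -3.94, -4.27 and -3.74. Cell cycle genes had 1.62, 2.57, 1.62 and 1.496. Members of each list were those measured on day 4, with no UMI minimum on the other days. The medians therefore do not rank the days on equal terms. Among single genes, Timp1 had 2.44, 4.74, 5.41 and 6.69, and Fn1 1.71, 4.82, 4.95 and 5.901. Each ratio is against the collagen-poor spots of its own day, whose median collagen share was 0.0812% on day 4 and 0.0235% on day 14. The ratios therefore do not order the levels of these genes between days.

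The genes that stood out most on day 4 against both later days were taken by size of the difference. Fabp5, a fatty acid binding protein gene of macrophages and other cells, had a log2 ratio of 2.95 on day 4 (2.79 to 3.11) against 1.17 on day 7 (0.94 to 1.39) and -0.13 on day 14 (-0.53 to 0.26). Col15a1, a collagen of basement membrane zones, had 2.83 against 0.99 and 1.12. Ift122 and Pbdc1 were also in this group on few UMIs, 21 and 58 in collagen-rich spots. On the other side, Igha, the IgA heavy chain gene of plasma cells, had -4.43 (-7.49 to -2.54) on day 4 on 2 UMIs against 4.598 and 7.38. Enpp2, encoding autotaxin, had -4.17 (-7.24 to -2.28) on 2 UMIs against -1.303 and 2.81. Ccl21a (ENSMUSG00000094686), a lymphatic chemokine gene with near-identical copies whose counts are uncertain, had -3.76 on 9 UMIs against 0.26 and 4.899. Hmcn2 and Cyp27a1 were the rest of this group, with 1 and 7 UMIs in collagen-rich spots. Each of these values is from a single heart, and no difference between days was tested.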

How the data were processed

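Visium libraries of 1 section from 1 mouse on each of 4 days were analysed here, with the day 4 section as the subject. The authors deposited raw UMI counts per gene and spot, with no normalization. Space Ranger 1.3.0, Seurat 4.1.1 and the mm10 build are named in the submitters' processing notes.

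Counts were summed per group of spots with Python 3.11.15 and scaled by TMM (edgeR 4.0.16, R 4.3.3) without the 3 ranking genes. Ratios have exact conditional 95% intervals (scipy 1.17.1), checked on simulated counts whose composition shift was known. That check does not cover the TMM scaling. With 1 mouse per day no test was run. DESeq2 1.42.0 size factors were an alternative, beside other totals, spot limits, ranking genes, gene minimums, equal weight per spot and thinning to 2000 UMIs. The depth was 1185285 UMIs in collagen-rich and 8328802 in collagen-poor spots. Doublets have no meaning for spots. Of 2026 day 4 barcodes 1978 also occur in another section, since slides share a barcode set.

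The spots, gene lists and naming rule were chosen with earlier results of these data known. Named genes were those with most UMIs or extreme ratios in each list, the 15 highest and 15 lowest by interval bound, genes the study names, the 5 with the largest excess in an inner bin, and 5 each way against days 7 and 14. Wif1 met the rule at 0 UMIs. Some genes that met it are not reported here. Gene coordinates are from GENCODE vM21.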

Additional observations from a re-analysis of the deposited data

Results flagged for a closer look

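Several genes that were lower in collagen-rich than collagen-poor spots on day 4 were higher there on another day, as log2 ratios on scaled CPM. Each day is 1 heart, and the difference between days was not tested. Ankrd1, Lyve1 and Timp3 were within 2-fold on plain CPM on day 4. The groups also differ between days, since collagen shares of collagen-rich spots ran from 0.234% to 2.44% on day 1 and from 3.43% to 7.43% on day 4. Ankrd1 had 1.38 on day 1 against -1.39 on day 4. Lyve1 had 1.12 on day 1 and 2.58 on day 14 against -1.71. Timp3 had 2.00 on day 14 against -1.59. Igha had 2.27 on day 1, 4.60 on day 7 and 7.38 on day 14 against -4.43, the last on 2 UMIs in collagen-rich spots. Ccl21a (ENSMUSG00000094686) had 1.55 on day 1 and 4.90 on day 14 against -3.76. Enpp2 had 2.81 on day 14 against -4.17.

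Of the day 4 spots left out for hemoglobin, 20 had a collagen share above the lower limit of the collagen-rich spots and were not used in the comparison.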

How the results depend on the processing

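The 16 alternatives gave 128 values for the 8 counts reported, of which 117 stayed within 1.5 times and 11 moved further. All 11 concerned the 1468 genes at least 2-fold higher in collagen-rich spots and the 2430 genes at least 2-fold lower in collagen-rich spots. Scaling by total UMIs gave 4854 and 924, and totals without mitochondrially encoded genes 2989 and 1420. Thinning to 2000 UMIs per spot gave 620 and 1308, with fewer genes over the minimum. Genes of at least 1000 UMIs gave 231 and 719, and asking for the whole interval past 2-fold 963 and 1594. Genes of at least 10 UMIs gave 3011 higher genes. With DESeq2 size factors 1452 of the higher and 2430 of the lower genes were also called.

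No named gene called in 1 direction was called in the other under any alternative. Of 95 named genes past 2-fold, Ankrd1, Lyve1, Mybpc3 and Timp3 were within it on plain CPM, and 9 (App, Cd74, Cd82, Ift122, Ighm, Lyve1, Mrc1, Pbdc1 and S100a8) had an interval that reached inside 2-fold. Under other choices of spots or their weight, App, Clu, Mrc1, Ift122 and Ighm came within 2-fold. No paired analysis was possible because each day is 1 section of 1 mouse. Genes of few UMIs in collagen-rich spots have wide intervals, and no interval includes the spread between mice.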
